A study of Mus musculus with 30 samples.

Results

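The 10 genes described here mark the epithelium that lines the alveoli, and each is read from the 1 probe set that the array annotation gives to its symbol alone, out of 22180 genes measured in this way. Of them 6 are type 2 cell genes (Sftpc, Sftpb, Sftpa1, Sftpd, Lamp3 and Abca3) and 4 are type 1 cell genes (Ager, Aqp5, Hopx and Pdpn). They were measured in whole-lung RNA of C57BL/6 mice on 30 Affymetrix Mouse Gene 2.0 ST arrays, 3 in each of 10 groups, hybridized in 2 sets of 15 arrays at different times. The mice were WT (Zmpste24 +/+) or Zmpste24 -/-, which lack the protease that matures prelamin A in every tissue and age early. They received bleomycin, which injures the lung, or the saline vehicle alone, and lungs were taken at day 21. Set 1 holds saline and bleomycin lungs of 16-week Zmpste24 -/- mice, saline and bleomycin lungs of WT mice, and saline lungs of 7-week Zmpste24 -/- mice. Set 2 holds saline lungs of 7-week WT mice, saline and bleomycin lungs of 82-week WT mice, and saline and bleomycin lungs of 7-week Zmpste24 -/- mice. The age of the set 1 WT mice is in doubt, because their age field says 16 weeks, their titles say young and their descriptions say old. They are called 16-week WT below.

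Type 2 cells are the cuboidal cells of the alveolus that make surfactant, store it in lamellar bodies and, after injury, divide and give rise to new type 1 cells. Type 1 cells are thin, flat cells that cover most of the alveolar surface and carry gas exchange. In bleomycin injury alveolar epithelium is damaged, and genes of both cell types are often followed as a sign of its loss and repair. In a bulk sample, fewer cells of a type and less RNA per cell cannot be told apart.

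Among the type 2 genes, Sftpc (probe set 17308388, chr14:70520941-70524081 in GRCm38.p6) and Sftpb (17459601, chr6:72304610-72314373) encode the small hydrophobic surfactant proteins that let the surfactant film spread. Sftpa1 (17298968, chr14:41131788-41136373) and Sftpd (17305243, chr14:41172212-41185198) encode collectins, secreted surfactant proteins that bind microbes. Lamp3 (17329046, chr16:19653381-19706365) encodes a membrane protein of the lamellar body, and it is also a marker of mature dendritic cells. Abca3 (17334205, chr17:24351921-24410204) encodes the transporter that moves phospholipid into the lamellar body. Among the type 1 genes, Ager (17336618, chr17:34597460-34600937) encodes the receptor for advanced glycation end products and Aqp5 (17314840, chr15:99591028-99594829) a water channel. Hopx (17449052, chr5:77086986-77115123) encodes a small homeodomain protein without DNA binding that is also made in the heart. Pdpn (17432440, chr4:143267409-143299564) encodes podoplanin, a surface glycoprotein that lymphatic endothelium also carries.

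The promoters of Sftpa1, Abca3 and Hopx are shown, 3 of the genes with called differences between groups described below. Sftpd and Pdpn had such differences too, and their promoters are not shown. Each window runs from 250 bases before to 50 bases after a start of the gene in RefSeq (GRCm38.p6) and is written 5′ to 3′ on the strand of the gene. For Abca3 this start is not the first base of the location given above (24351921) but lies further into the gene. Capitals mark the letters CTCAAG or CACTTG, cores of the kind bound by NKX2-1, the lung epithelial regulator, on either strand, and TATAAA on the strand of the gene.
Sftpa1 (chr14:41131538-41131837, plus strand): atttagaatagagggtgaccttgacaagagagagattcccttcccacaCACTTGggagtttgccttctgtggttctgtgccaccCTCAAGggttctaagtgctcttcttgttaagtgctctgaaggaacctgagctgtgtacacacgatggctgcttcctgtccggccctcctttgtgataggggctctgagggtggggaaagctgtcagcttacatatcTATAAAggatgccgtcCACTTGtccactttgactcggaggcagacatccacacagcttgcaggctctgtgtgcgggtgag
Abca3 (chr17:24351773-24352072, plus strand): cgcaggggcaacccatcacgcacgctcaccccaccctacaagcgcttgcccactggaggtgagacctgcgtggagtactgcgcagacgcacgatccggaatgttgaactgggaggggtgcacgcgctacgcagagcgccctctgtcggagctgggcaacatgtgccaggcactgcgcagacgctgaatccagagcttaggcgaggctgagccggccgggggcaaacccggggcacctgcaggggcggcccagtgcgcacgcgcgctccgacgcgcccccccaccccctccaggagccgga
Hopx (chr5:77115074-77115373, minus strand): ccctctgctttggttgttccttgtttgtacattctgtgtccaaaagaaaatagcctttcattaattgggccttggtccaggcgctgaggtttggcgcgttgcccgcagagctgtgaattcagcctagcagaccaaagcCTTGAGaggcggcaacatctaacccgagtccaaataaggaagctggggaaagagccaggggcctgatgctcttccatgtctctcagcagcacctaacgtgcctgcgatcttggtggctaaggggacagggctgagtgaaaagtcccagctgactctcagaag
The Sftpa1 window holds CACTTG at -202 and -14, CTCAAG at -166 and TATAAA at -30, counted from the start to the first base of the match. The Hopx window holds 1 match, CTTGAG, which is CTCAAG on the other strand, at -112. The Abca3 window holds none of these letters. Of all 32851 promoter windows of this length, 15.9% hold CTCAAG, 13.6% hold CACTTG, 26.4% hold either and 8.32% hold TATAAA. A FOXA-type core, TGTTTNC on either strand, stands in 20.5% of all windows and in none of these 3. Windows were found for 8 of the 10 genes, 9 in all because Hopx has a pair, and Sftpc and Sftpd are named only. Among the other windows, that of Sftpb holds CTCAAG at -100 and -15 and a FOXA-type core at -88. That of Lamp3 holds FOXA-type cores at -162 and -92, and that of Pdpn holds a FOXA-type core at -153. The Hopx window that is not shown holds CACTTG at 35 and CTTGAG at 37, both after the start. A match of letters is a description of the window and says nothing of binding.

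Levels are log2 intensities of the deposited table, and differences are between group means on that scale. A difference was called at an adjusted p under 0.05 from limma, over all 22180 genes. The array medians ran from 5.95 to 6.19. Zmpste24 itself lay at 5.29 to 6.56 in 12 of the 15 Zmpste24 -/- arrays and at 7.93 to 8.68 in the WT arrays. The other 3, all saline lungs of 7-week Zmpste24 -/- mice (set 1 replicate 2, set 2 replicates 2 and 3), lay at 7.55, 7.60 and 7.93, so results on that group are also given without them. Replicate 3 of the 16-week Zmpste24 -/- saline group stands apart, since it correlated with the rest at 0.944 on average where every other array reached at least 0.968. By Xist and Eif2s3y (above or below 7) 21 arrays were male, 8 female and 1 high in both, and 6 of the 10 groups were mixed, so sex differs between some of the groups compared and was not a term in the fit. Most 7-week Zmpste24 -/- saline arrays carried RNA of other tissue. The mean of 7 squamous epithelium genes was 8.23 in set 2 and 7.46 in set 1, against 5.23 to 5.46 in the other groups. Set 1 replicate 1 was unlike the rest, with the squamous gene Krt4 at 6.22. In the other 7-week Zmpste24 -/- saline arrays Krt4 lay at 11.40 to 11.82. The brown fat gene Ucp1 was high only in the 3 arrays near the WT level of Zmpste24. It lay there at 8.78, 8.72 and 9.13, in the order given above. Nothing but the count of biological samples in the methods says how the replicates were kept apart, so the p-values measure the spread between these arrays.

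Most of the alveolar genes had probe sets among the brightest of the arrays. Averaged over the 30 arrays, Sftpc lay at 13.29, above 99.96% of all genes tested, and Sftpb at 13.25, above 99.95%. Sftpa1 lay at 12.32 and Ager at 12.34, above 99.86% and 99.87%. Lamp3 (10.95), Sftpd (10.77), Pdpn (10.76), Abca3 (10.25) and Aqp5 (10.18) lay between the percentiles 98.33 and 99.29. Hopx was the exception, at 7.73 and above 74.93% of genes. Array intensities of different genes come from different probes, so these ranks place the genes only roughly. Sftpc and Sftpb lie 0.54 and 0.58 below the brightest gene of the array on average, and whether signal saturation narrowed their range was not tested. Their group means spanned only 0.30 and 0.47, against 1.10 for Sftpa1, 0.99 for Lamp3, 0.92 for Sftpd, 0.87 for Abca3, 0.85 for Pdpn and 0.65 for Hopx. Ager (0.49) and Aqp5 (0.50) spanned as little as Sftpb, although Aqp5 lies far from the top of the scale.

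**Figure D1:**
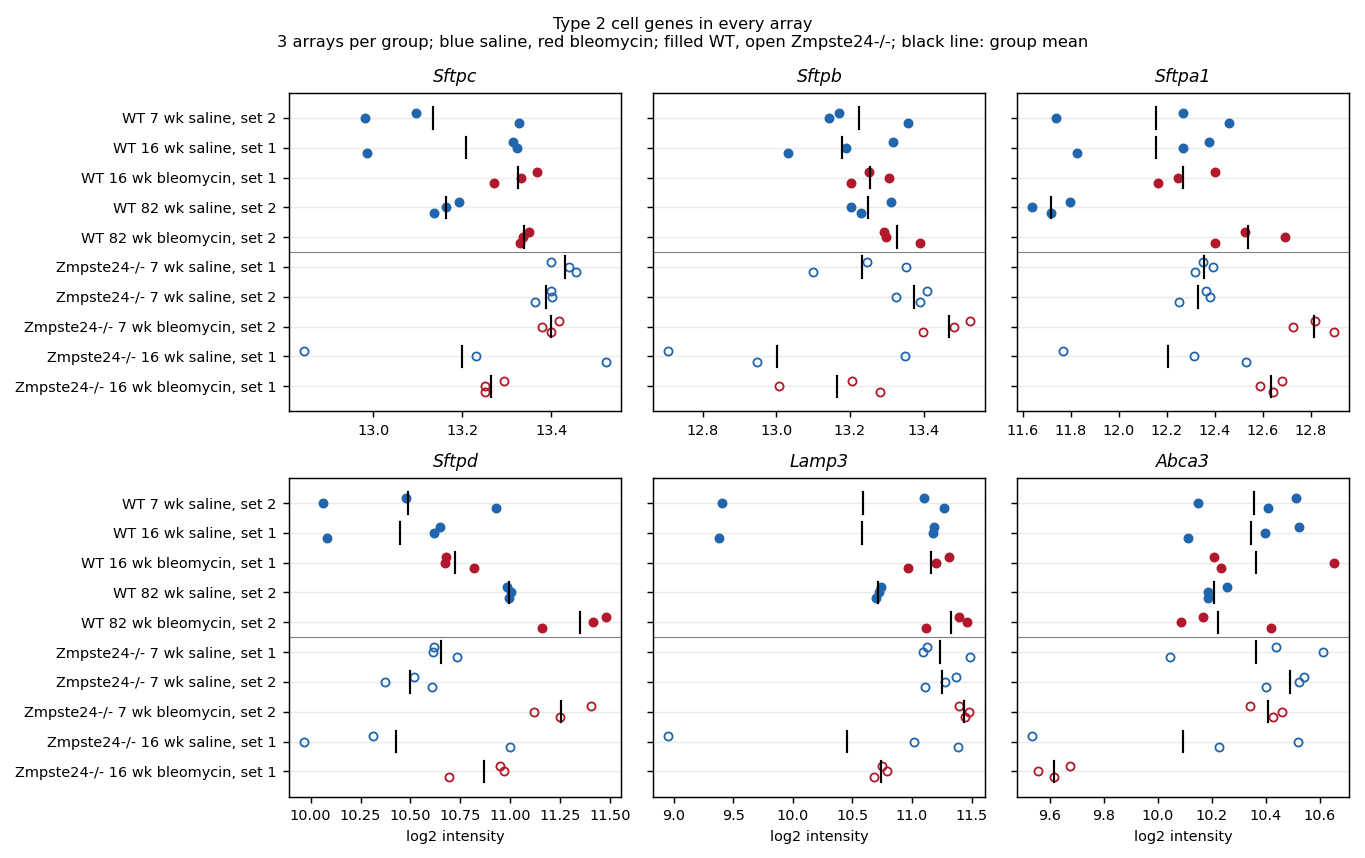
Log2 intensity (x axes) of the 6 type 2 genes in each of 30 arrays, by group (rows; points are arrays, black lines group means). Sftpa1 lies at 11.64 to 11.80 in the 82-week WT saline arrays and at 12.40 to 12.69 after bleomycin, and Abca3 at 9.56 to 9.67 in the 16-week Zmpste24 -/- bleomycin arrays.

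The first question was what bleomycin did to these genes at day 21 in each of 4 settings. None of the 10 genes was called lower after bleomycin in any of them, where 0.212% to 3.28% of all genes were called lower. Of the 40 differences 2 were called, both for collectins and both higher, where 0.5% to 7.32% of all genes were called higher. Of the 40 estimates 37 were above 0. Each setting has its own saline group, so the 4 comparisons share no array. Many of those signs rest on saline replicates that were low in most of these genes, 1 in each 16-week saline group. Without replicate 3 of the Zmpste24 -/- and replicate 1 of the WT group, 30 of the 40 estimates were above 0.

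Sftpa1 was the type 2 gene with the largest response. In 82-week WT lungs it lay at 11.72, 11.64 and 11.80 with saline and at 12.40, 12.69 and 12.52 with bleomycin, with no overlap. The difference of 0.82 (SE 0.17, adjusted p = 0.0122, limma) was called, where 0.5% of all genes were called higher, and 1 of 10 members passed. The call is lost without saline replicate 1 (adjusted p = 0.0576), saline replicate 2 (0.077) or bleomycin replicate 2 (0.104), while the difference stays between 0.75 and 0.89. The saline lungs of this group were the lowest of all 10 groups for Sftpa1, and the bleomycin lungs overlapped only those of 16-week Zmpste24 -/- mice among their neighbours in order. In 7-week Zmpste24 -/- lungs Sftpa1 lay at 12.25, 12.38 and 12.36 with saline and at 12.90, 12.73 and 12.82 with bleomycin. These arrays do not overlap either, but the difference of 0.48 (SE 0.17, adjusted p = 0.116) was not called. With all 6 saline arrays of 7-week Zmpste24 -/- mice as the control it was 0.47 and was called (adjusted p = 0.0416). Some of these 6 arrays pair closely across the sets (r = 0.991 for replicate 2 of set 1 with 3 of set 2, and for 3 with 1), and whether they are separate lungs is not stated. In 16-week Zmpste24 -/- lungs the values were 12.53, 12.31 and 11.77 with saline and 12.64, 12.59 and 12.68 with bleomycin. That difference was 0.43 (SE 0.17, adjusted p = 0.10), and 0.21 (adjusted p = 0.524) without saline replicate 3. In 16-week WT lungs it was 0.11 (SE 0.17, adjusted p = 0.931), with arrays that overlap. The 82-week WT response was not shown to differ from those of the Zmpste24 -/- groups, since the differences of responses were -0.39 (95% interval -0.88 to 0.10) for 16-week and -0.34 (-0.83 to 0.15) for 7-week Zmpste24 -/- mice.

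Sftpd, the other collectin, was called in 7-week Zmpste24 -/- lungs. It lay at 10.61, 10.37 and 10.52 with saline and at 11.25, 11.12 and 11.40 with bleomycin. The arrays do not overlap, and the difference was 0.76 (SE 0.20, adjusted p = 0.0236), in a comparison where 2.51% of all genes were called higher. Without the 3 saline arrays near the WT level of Zmpste24 the difference was 0.65 and was not called (adjusted p = 0.509). Leaving out saline replicate 2 or 3, or bleomycin replicate 1 or 3, also ended the call, with adjusted p of 0.074 to 0.118. In 82-week WT lungs Sftpd lay at 10.99, 11.003 and 10.98 with saline and at 11.16, 11.41 and 11.48 with bleomycin, all higher, but the difference of 0.36 (SE 0.20, adjusted p = 0.541) was not called. The difference was 0.44 (adjusted p = 0.159) in 16-week Zmpste24 -/- lungs and 0.27 (adjusted p = 0.771) in 16-week WT lungs. Macrophage genes were higher beside it in the 7-week Zmpste24 -/- comparison, 6 of 9 called, with a range of the list mean of 7.78 to 8.05 in saline and 9.22 to 9.62 in bleomycin arrays. Over the 30 arrays Sftpd and the mean of those 9 genes had r = 0.76, a description over arrays that share groups. In the same comparison 6 of 7 squamous and 6 of 8 heart and skeletal muscle genes were lower after bleomycin (medians -2.59 and -2.04). The part of these cells in the Sftpd result, and in those of Sftpa1 and Pdpn against the same control, was not tested.

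The 4 other type 2 genes were not called in any of the 4 bleomycin comparisons. Sftpc differed by 0.01 to 0.17 and Sftpb by 0.07 to 0.16. Lamp3 differed by 0.19 to 0.61 with an SE of 0.45, the largest SE of the 10 genes, so that the interval in 82-week WT lungs ran from -0.33 to 1.54. Without the low saline array the Lamp3 estimate turned from 0.29 to -0.46 in 16-week Zmpste24 -/- lungs and from 0.58 to -0.02 in 16-week WT lungs. In 82-week WT lungs Lamp3 lay at 10.69, 10.72 and 10.74 with saline and at 11.12, 11.46 and 11.39 with bleomycin, without overlap. Abca3 had the lowest estimate of the 40, in 16-week Zmpste24 -/- lungs. It lay there at 10.22, 10.52 and 9.54 with saline and at 9.62, 9.56 and 9.67 with bleomycin. The lowest saline value is that of the array that stands apart, and with it the difference was -0.48 (SE 0.18, adjusted p = 0.0888). Without that array it was -0.76 (SE 0.16, adjusted p = 0.00395), where 7.08% of all genes were called in either direction. In the other 3 settings the Abca3 difference was between -0.08 and 0.02. Beside it, in the comparison over all arrays, 7 of 7 T and B cell genes and 6 of 7 dendritic cell genes were lower in 16-week Zmpste24 -/- lungs, and their part in it was not tested.

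**Figure D2:**
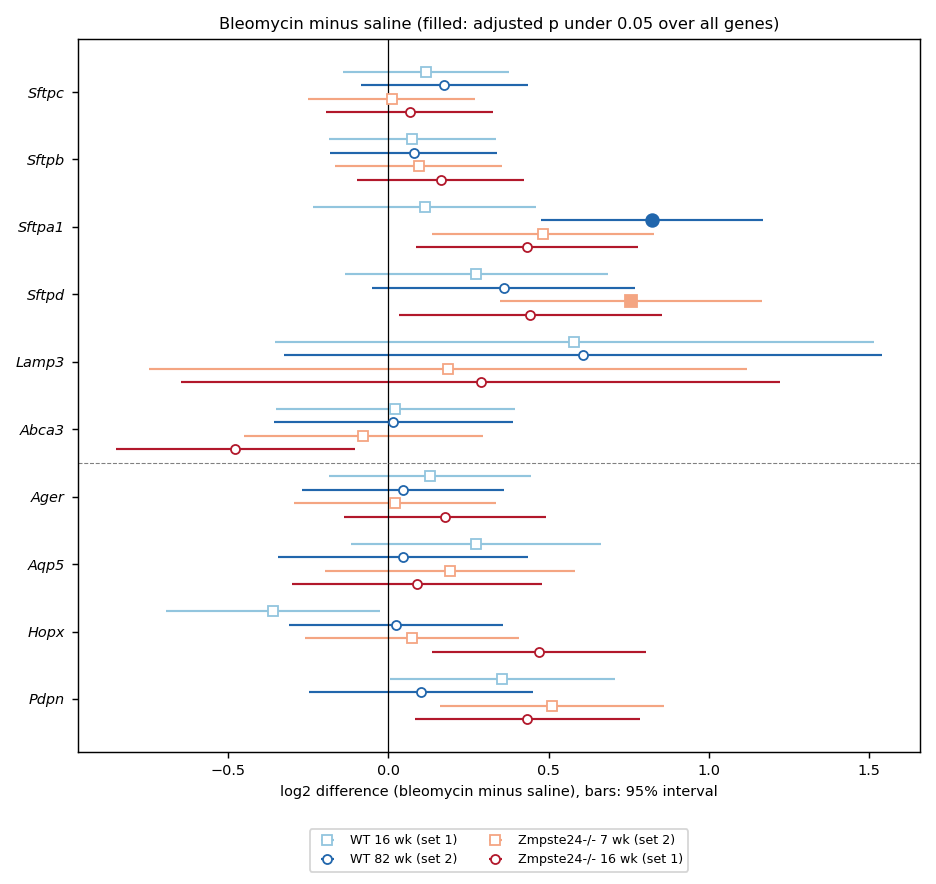
Log2 difference of bleomycin minus saline (x axis) for each gene (rows, type 2 above the dashed line) in 4 settings, with 95% intervals from the fit over 30 arrays. Filled symbols mark the called differences, Sftpa1 at 0.82 in 82-week WT lungs and Sftpd at 0.76 in 7-week Zmpste24 -/- lungs.

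No type 1 gene was called in any bleomycin comparison. In all, 0 of 10 members passed in 16-week WT lungs, where 0.721% of all genes were called in either direction, and 0 of 10 in 16-week Zmpste24 -/- lungs, where 7.32% were called higher and 3.28% lower. In 7-week Zmpste24 -/- lungs Pdpn lay at 10.68, 10.74 and 10.73 with saline and at 11.17, 11.26 and 11.24 with bleomycin. The arrays are well apart, and the difference was 0.51 (SE 0.17, adjusted p = 0.0918), which was called with all 6 saline arrays as the control (0.57, adjusted p = 0.0138). In 16-week Zmpste24 -/- lungs it lay at 10.73, 10.46 and 10.09 with saline and at 10.89, 10.81 and 10.88 with bleomycin, again without overlap, a difference of 0.43 (adjusted p = 0.102). Without saline replicate 1 the differences of Pdpn (0.59), Sftpa1 (0.60), Sftpd (0.73) and Hopx (0.72) in that group were all called, with adjusted p of 0.0016 to 0.0278. Without saline replicate 3, the array that stands apart, Pdpn (0.27), Sftpa1 (0.21), Sftpd (0.39) and Hopx (0.25) were not called. In 16-week WT lungs the difference was 0.36 (adjusted p = 0.516), and in 82-week WT lungs 0.10 (adjusted p = 0.898). Ager differed by 0.02 to 0.18 and Aqp5 by 0.04 to 0.27, and their saline and bleomycin arrays overlapped except for Aqp5 in 7-week Zmpste24 -/- lungs (0.19, adjusted p = 0.774).

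Hopx went apart from the other type 1 genes, since its estimates had opposite signs at 16 weeks in the different genotypes. In 16-week WT lungs it lay at 7.80, 8.10 and 7.71 with saline and at 7.55, 7.52 and 7.46 with bleomycin. The bleomycin arrays all lie lower, but the difference of -0.36 (SE 0.16, adjusted p = 0.465) was not called. In 16-week Zmpste24 -/- lungs it lay at 8.19, 7.62 and 7.25 with saline and at 8.07, 8.25 and 8.14 with bleomycin. The saline arrays are spread on both sides of the bleomycin arrays, and the difference of 0.47 (SE 0.16, adjusted p = 0.0618) was not called. The difference between these responses was called, at 0.83 (SE 0.23, 95% interval 0.36 to 1.30, adjusted p = 0.0372), where 2.62% of all genes were called higher. It is the 1 member of 10 called in that comparison. Without the saline array that stands apart it was 0.61 (adjusted p = 0.0791), and Abca3 was called in its place at -0.78 (adjusted p = 0.0322). Over all arrays the Abca3 difference of responses was -0.50 (adjusted p = 0.303). The Hopx difference was called in 12 of 24 alternative settings, with values from 0.61 to 1.08. Its call is lost without any 1 of the 6 bleomycin arrays (0.78 to 0.87, adjusted p of 0.0545 to 0.0909) or without WT saline replicate 1 (0.87, 0.0581) or 2 (0.71, 0.102). In 82-week WT and 7-week Zmpste24 -/- lungs the Hopx differences were 0.02 and 0.07.

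**Figure D3:**
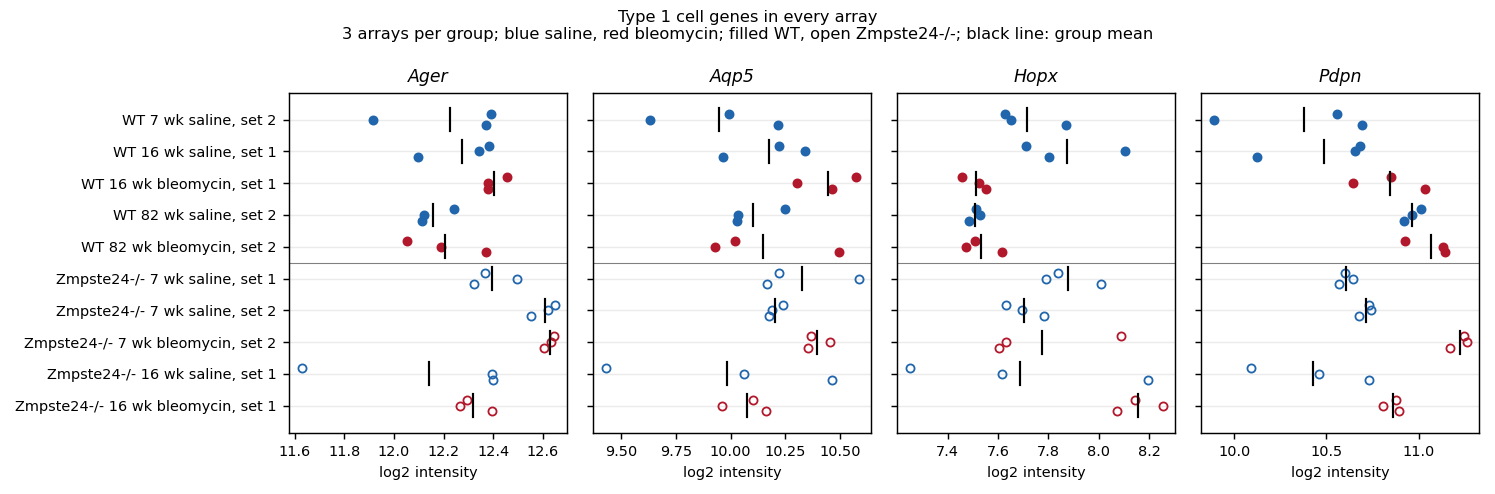
Log2 intensity (x axes) of the 4 type 1 genes in each of 30 arrays, by group (rows; points are arrays, black lines group means). Hopx lies at 8.07 to 8.25 in the 16-week Zmpste24 -/- bleomycin arrays and at 7.46 to 7.61 in those of both WT bleomycin groups, and Pdpn is highest in the 7-week Zmpste24 -/- bleomycin arrays, at 11.17 to 11.26.

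The second question was how injured lungs of old Zmpste24 -/- mice differed from injured WT lungs. In them 1 type 2 gene, Abca3, was lower and 1 type 1 gene, Hopx, was higher. The surfactant protein genes were not called in the fit over all groups. The comparison can be made in set 1, against 16-week WT bleomycin lungs, and across sets, against 82-week WT bleomycin lungs. Both use the same 3 Zmpste24 -/- arrays, so their values are given side by side and are not independent.

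Abca3 lay at 9.62, 9.56 and 9.67 in the 16-week Zmpste24 -/- bleomycin arrays and at 10.23, 10.65 and 10.21 in the 16-week WT bleomycin arrays. The groups do not overlap, and the difference was -0.75 (SE 0.18, 95% interval -1.12 to -0.38, adjusted p = 0.00447). It was called in all 17 alternative settings, from -0.83 to -0.61. In the 82-week WT bleomycin arrays Abca3 lay at 10.42, 10.08 and 10.17, and the difference was -0.61 (SE 0.18, adjusted p = 0.0239). That comparison crosses the sets, and with set as a term in the fit it was -0.48 (adjusted p = 0.37). Its call is also lost with array medians centred (adjusted p = 0.0623) and without any 1 of the 3 Zmpste24 -/- arrays or WT replicate 1 (0.0505 to 0.12). Ordered over the 10 groups, Abca3 was lowest in the 16-week Zmpste24 -/- bleomycin lungs (mean 9.62), next to the 16-week Zmpste24 -/- saline lungs (10.09), which overlap them through the array that stands apart. The means of the 8 other groups ran from 10.21 to 10.49, and neighbours in that order overlap. With saline the genotypes differed by -0.25 (adjusted p = 0.691) at 16 weeks and by 0.13 (adjusted p = 0.933) at 7 weeks.

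Hopx lay at 8.07, 8.25 and 8.14 in the 16-week Zmpste24 -/- bleomycin arrays, against 7.55, 7.52 and 7.46 in the 16-week WT and 7.61, 7.47 and 7.51 in the 82-week WT bleomycin arrays. All 3 lie above all 6 WT arrays. The difference was 0.65 (SE 0.16, 95% interval 0.31 to 0.98, adjusted p = 0.0061) within set 1, and it was called in all 17 alternative settings, from 0.60 to 0.70. Across the sets it was 0.62 (SE 0.16, adjusted p = 0.00963). With set as a term it was 0.45 (adjusted p = 0.351), and the call is also lost without Zmpste24 -/- replicate 2 (adjusted p = 0.05). Over the 10 groups, the 16-week Zmpste24 -/- bleomycin lungs were highest (mean 8.16) and did not overlap the next group, 7-week Zmpste24 -/- saline of set 1 (7.88), while all later neighbours overlap. Single arrays of other groups reached its range. They lay at 8.19 in 16-week Zmpste24 -/- saline, 8.10 in 16-week WT saline and 8.09 in 7-week Zmpste24 -/- bleomycin lungs.

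In the set 1 comparison 2 of 10 members were thus called, 1 in each direction, where 7.37% of all genes were called higher and 8.48% lower. Across the sets it was also 1 in each direction, where 4.98% were higher and 9.08% lower. The members that were not called in either include Sftpc (-0.06 and -0.07), Sftpb (-0.09 and -0.16) and Ager (-0.09 and 0.11). Sftpa1 differed by 0.37 in set 1 without overlap (adjusted p = 0.156) and by 0.10 across the sets. Sftpd differed by 0.15 in set 1 and by -0.48 across the sets, there without overlap (adjusted p = 0.11). With only the groups compared, Sftpa1 was called in set 1 (0.0497) and Sftpd across the sets (0.0393, and 0.028 with array weights). Lamp3 lay at 10.68, 10.79 and 10.75 in the Zmpste24 -/- arrays, below all 16-week WT arrays (10.97, 11.20 and 11.31) and all 82-week WT arrays (11.12, 11.46 and 11.39). Its differences of -0.42 and -0.58 (SE 0.45 each) were not called over all groups. They were called when only the groups compared were fitted (adjusted p = 0.0399 and 0.0143), which leaves out the saline arrays with very low Lamp3.

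Markers of other cells moved beside Abca3 and Hopx. Hopx is also a heart gene, and in both comparisons 2 of 8 heart and skeletal muscle genes were higher, the atrial myosin light chain Myl7 and the cardiac troponin T gene Tnnt2. Myl7 lay at 8.22, 8.34 and 7.91 in the Zmpste24 -/- bleomycin arrays against 6.91, 7.54 and 7.00 in the 16-week WT bleomycin arrays, and Tnnt2 differed by 0.92 (SE 0.25, adjusted p = 0.0118). The mean of the 8 genes ranged from 6.87 to 7.11 in the Zmpste24 -/- arrays, from 6.48 to 7.19 in the 16-week WT arrays and from 6.66 to 6.72 in the 82-week WT arrays. Over 30 arrays Hopx had r = 0.57 with Myl7 and 0.54 with Tnnt2. With 3 other genes of that list r was lower, at 0.24 (Myh6), 0.04 (Nppa) and -0.03 (Acta1). With the mean of the 8 genes it was 0.15. In 7-week Zmpste24 -/- saline lungs of set 2, where the 8-gene mean was highest (8.56 to 8.72), Hopx was at 7.63 to 7.78. Beside Abca3, 5 of 8 fibroblast and matrix genes and 5 of 10 endothelial genes were lower in the set 1 comparison, and the mean of the fibroblast list ranged from 7.91 to 7.97 against 9.04 to 9.48. Over 30 arrays Abca3 had r = 0.80 with that mean and 0.78 with the endothelial mean. Of 7 dendritic cell genes, 5 were lower in each comparison, with a list mean of 6.35 to 6.499 against 7.17 to 7.61 in set 1, beside the lower Lamp3 values. Of 9 macrophage genes, 6 were lower in set 1 and 8 across the sets (medians -1.25 and -1.59), and of 7 T and B cell genes 6 were lower in each (-1.39 and -1.18). By the sex-linked genes the 3 Zmpste24 -/- arrays and the 82-week WT arrays were male, as was only replicate 1 of the 16-week WT arrays (Hopx 7.55, Abca3 10.23). The part of heart, stromal, immune cell or dendritic cell RNA, and of sex, in these results was not tested.

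**Figure D4:**
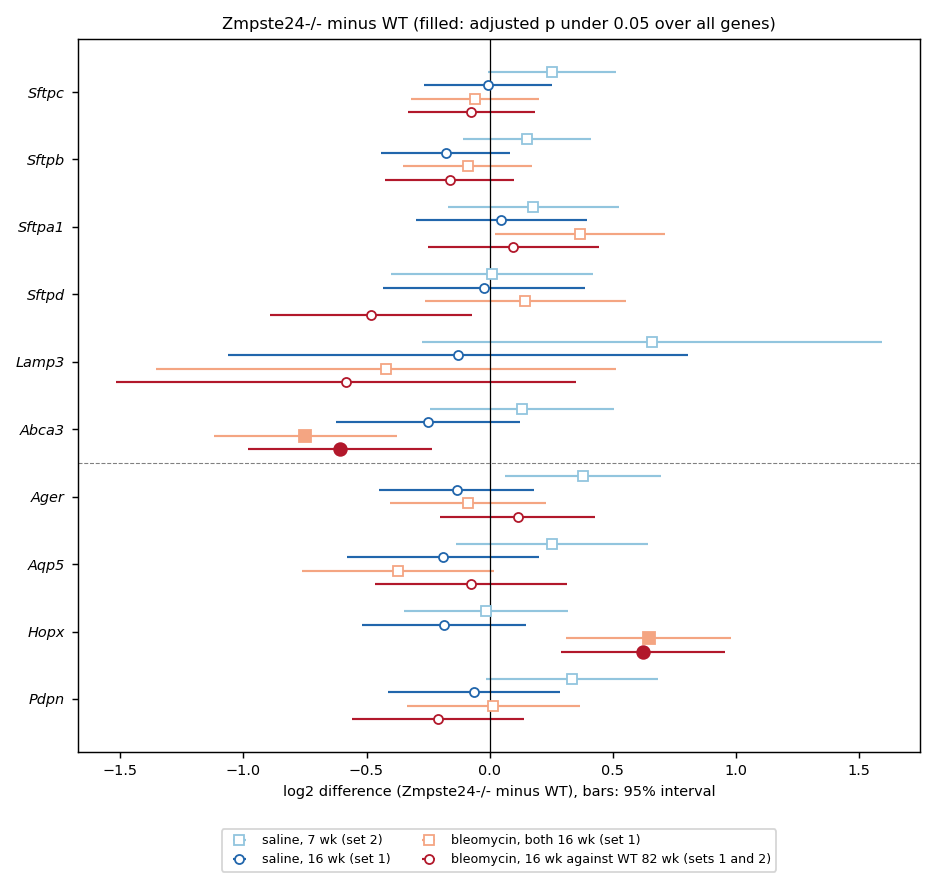
Log2 difference of Zmpste24 -/- minus WT (x axis) for each gene (rows, type 2 above the dashed line), with saline at 7 and at 16 weeks and after bleomycin, with 95% intervals. Filled symbols mark the called differences, Abca3 at -0.75 and -0.61 and Hopx at 0.65 and 0.62 in injured lungs.

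The third question was how these genes stood with age and genotype in saline lungs. Natural aging was read from 82-week against 7-week WT mice within set 2. Pdpn lay at 10.92, 10.96 and 11.01 at 82 weeks and at 10.69, 9.89 and 10.56 at 7 weeks, all higher in old lungs. The difference was 0.59 (SE 0.17, adjusted p = 0.0305), and Pdpn was the 1 member of 10 called, where 4.98% of all genes were called higher and 3.15% lower. Much of it rests on the 7-week replicate 2, without which it was 0.34 (adjusted p = 0.317), and leaving out any 82-week array or fitting only these groups also ended the call (adjusted p of 0.0707 to 0.096). In this comparison 9 of 9 macrophage genes were higher and 3 of 8 heart and skeletal muscle genes were lower, and their part in it was not tested. The estimates of the collectins went opposite ways. Sftpa1 lay at 11.72, 11.64 and 11.80 in old and at 12.46, 11.74 and 12.27 in young lungs, a difference of -0.44 (SE 0.17, adjusted p = 0.122). Sftpd lay at 10.99, 11.003 and 10.98 in old and at 10.93, 10.06 and 10.48 in young lungs, a difference of 0.50 (SE 0.20, adjusted p = 0.134). Without the 7-week replicate 2 the Sftpa1 difference was -0.65 and was called (adjusted p = 0.026), while that of Sftpd was 0.29 (adjusted p = 0.606). Without replicate 1 the Sftpd difference was 0.72 and was called (adjusted p = 0.028).

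In Zmpste24 -/- mice, 16-week and 7-week saline lungs of set 1 gave 0 of 10 called, where 1.83% of all genes were called in either direction. All 10 estimates were below 0, from -0.79 for Lamp3 to -0.15 for Sftpa1, and the groups overlap for each gene. The older group holds the array that stands apart, which was the lowest of the 3 for 9 of the 10 genes, Sftpd being the exception. Without it 4 of the 10 estimates were above 0 and all lay between -0.17 (Sftpd) and 0.07 (Sftpa1), with Lamp3 at -0.04. In this comparison 5 of 7 squamous, 5 of 8 fibroblast and matrix and 3 of 8 heart and skeletal muscle genes were lower, and their part in it was not tested. The effect of age on Pdpn differed between genotypes by -0.77 (SE 0.24, 95% interval -1.26 to -0.27, adjusted p = 0.0579), which was not called, and for no member was such a difference called, against 5.69% of all genes. With all 6 young Zmpste24 -/- saline arrays the Pdpn value was -0.82 and was called (adjusted p = 0.0199). Without the 3 saline arrays near the WT level of Zmpste24 the counts of these comparisons of 7-week Zmpste24 -/- mice stayed at 0. Between genotypes with saline, 0 of 10 were called at 16 weeks, where 0.00902% of all genes were called, and 0 of 10 at 7 weeks, where 2.88% were. The largest estimate relative to its SE was that of Ager at 7 weeks. It lay at 12.55, 12.62 and 12.65 in Zmpste24 -/- and at 12.37, 11.92 and 12.39 in WT lungs without overlap, a difference of 0.38 (SE 0.15, adjusted p = 0.284). The lowest WT value is that of replicate 2, described below, without which it was 0.22. At 7 weeks 5 of 7 squamous, 4 of 8 heart and skeletal muscle and 3 of 8 fibroblast and matrix genes were higher in Zmpste24 -/- lungs, and their part in it was not tested. At 16 weeks the estimates turned with 1 array: 1 of 10 was above 0, and 9 of 10 without the Zmpste24 -/- array that stands apart. The responses to bleomycin of 16-week and 7-week Zmpste24 -/- mice against that of 82-week WT mice also gave 0 of 10 called each, where 1.39% and 2.64% of all genes were called in either direction.

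**Figure D5:**
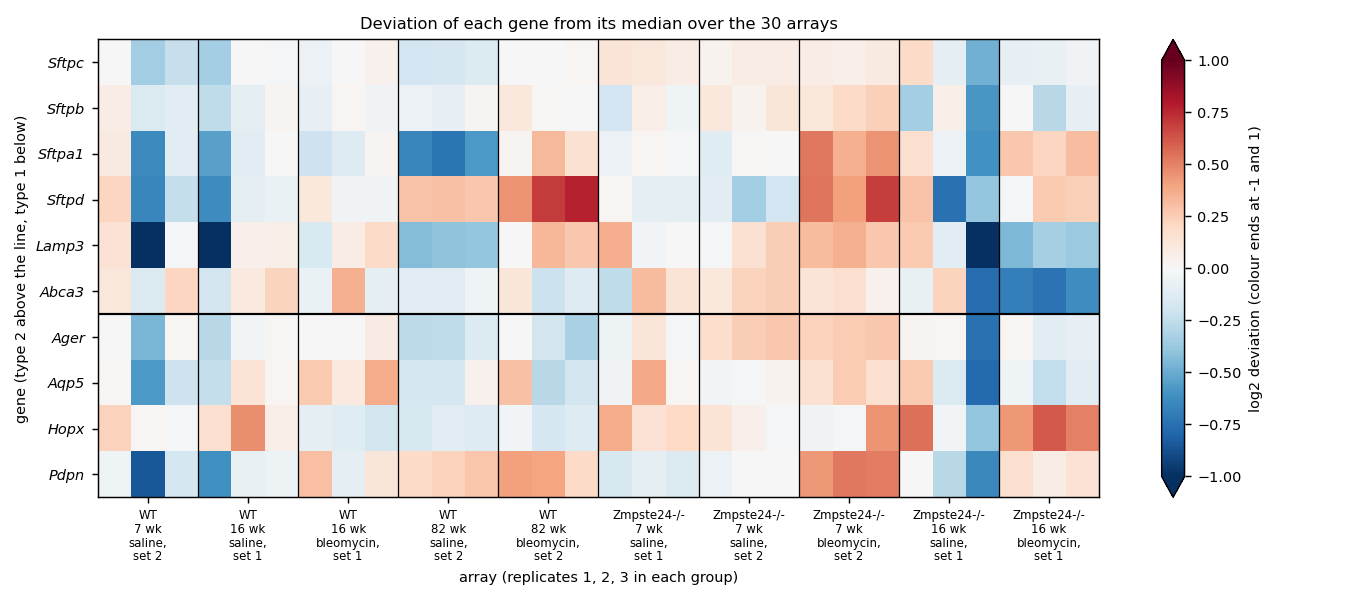
Deviation of each gene (rows) from its own median over 30 arrays, in log2 units (colour, ends at -1 and 1), for each array (columns, 3 per group). The 3 darkest Lamp3 cells are single saline arrays at 8.96, 9.38 and 9.41, in which most other genes are below their median as well.

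Part of the variation of the 10 genes lies between arrays of a group rather than between groups. Lamp3 lay between 10.68 and 11.49 in 27 arrays and at 8.96, 9.38 and 9.41 in the other 3, with a gap of 1.27 and none between. These 3 are saline replicate 3 of the 16-week Zmpste24 -/- group, replicate 1 of the 16-week WT group and replicate 2 of the 7-week WT group. In the first of them all 10 genes were below their median over the arrays, and in each of the others 9 were, with Hopx above it. The latter pair, which lie in different sets, correlated at 0.992 over all genes, and none of the 10 genes differed by more than 0.33 between them. Such a match was not limited to the low arrays. Replicate 3 of the 16-week WT and replicate 3 of the 7-week WT saline group correlated at 0.993, and none of the 10 genes differed by more than 0.23. Whether arrays that match in this way come from the same lung is not stated. The median deviation of the 10 genes was -0.62, -0.31 and -0.52 in the 3 arrays low in Lamp3 and between -0.17 and 0.27 in the other 27. The 3 bleomycin arrays of 7-week Zmpste24 -/- mice lie at the other end, with medians of 0.19, 0.25 and 0.27, and with 9, 9 and 10 of the 10 genes above their median. Each of the 3 saline arrays low in Lamp3 was left out in turn, and the calls that change are given with the results.

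Across the 30 arrays, genes of 1 cell type were not more alike than genes of different types. The median r was 0.51 over the 15 pairs of type 2 genes, 0.42 over the 6 pairs of type 1 genes and 0.56 over the 24 mixed pairs. Without the array that stands apart the medians were 0.42, 0.27 and 0.41. The closest type 2 pair was Sftpc and Lamp3 (r = 0.90, and 0.85 without that array), and the closest mixed pair was Sftpd and Pdpn (r = 0.84 with or without it). Abca3 and Hopx were the pair that ran most against each other (r = -0.23, and -0.47 without it). The arrays share groups, so these are descriptions. The genes most like the mean of the 6 type 2 genes were Slco4c1 (r = 0.96), Cxcl15 (0.95), Sgpp2 (0.92), Slc34a2 (0.92) and Dram1 (0.91). Those most like the mean of the 4 type 1 genes were Rab6a (0.92), Fkbp7 (0.91), Atl3 (0.90), Tmed7 (0.90) and Napsa (0.89), of which Napsa, an aspartic protease that processes surfactant protein B, is a type 2 gene. These genes were picked for the highest r over the same 30 arrays. Within groups of 3 arrays they had r between 0.89 and 0.97. Without the array that stands apart r over the arrays was 0.87 to 0.94 for the type 2 mean and 0.83 to 0.87 for the type 1 mean.

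Other genes of type 2 cells, 18 in all, gave 0 called in bleomycin lungs of either WT group. In 16-week Zmpste24 -/- lungs 2 of 18 were higher and 1 lower, where 7.32% and 3.28% of all genes were. The higher ones were Ctsh, a lysosomal protease that also processes surfactant protein B (0.91, SE 0.22, adjusted p = 0.00879), and Scd1, a fatty acid desaturase (0.79, adjusted p = 0.033), and the lower was Hc, complement component C5 (-0.95, adjusted p = 0.0436). In 7-week Zmpste24 -/- lungs Ctsh was the 1 called, at 0.92 (adjusted p = 0.0113). In injured lungs, Zmpste24 -/- against WT, 4 of 18 were lower and 0 higher in set 1, and 6 lower and 0 higher across the sets, where 8.48% and 9.08% of all genes were lower. Those of set 1 were Hc (-1.56, SE 0.30, adjusted p = 0.000631), the mucin Muc1 (-0.80, adjusted p = 0.00184), the fatty acid synthase Fasn (-1.09, adjusted p = 0.00309) and the cytokine Il33 (-1.39, adjusted p = 0.018). The median of the 18 was -0.38 in set 1, where that of all genes was -0.02. In 82-week against 7-week WT lungs, where 4.98% of all genes were higher and 3.15% lower, 1 was higher, Ctsh (0.82, adjusted p = 0.0194), and 1 lower, the regulator Nkx2-1 (-0.48, SE 0.13, adjusted p = 0.0164). Ctsh and Il33 are also made by cells outside the epithelium.

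Of the other genes of type 1 cells, 16 in all, 4 were higher and 0 lower after bleomycin in 16-week Zmpste24 -/- lungs, 1 was higher in 7-week Zmpste24 -/- lungs, and 0 were called in either WT group. Of all genes 7.32% were higher and 3.28% lower in the first of these and 2.51% higher in the next. The 4 were Lmo7 (0.72, SE 0.14, adjusted p = 0.00163), Clic3 (0.69, adjusted p = 0.00308), the anchoring protein Akap5 (0.59, adjusted p = 0.0143) and the cytochrome Cyp2b10 (0.69, adjusted p = 0.0316). The median of the 16 in that comparison was 0.30, beside -0.01 for all genes. In injured lungs, Zmpste24 -/- against WT, 4 of 16 were higher and 2 lower in set 1, where 7.37% and 8.48% of all genes were. Cyp2b10 (1.14, SE 0.21, adjusted p = 0.000301) led those that were higher, and Igfbp2, an insulin-like growth factor binding protein of type 1 cells that other cells make as well, was the lowest (-1.72, SE 0.29, adjusted p = 0.000155). Across the sets, where 4.98% and 9.08% of all genes were higher and lower, 5 were higher and 1 lower, Akap5 leading at 1.02 (SE 0.16, adjusted p = 5.38e-05). Ager, Aqp5 and Pdpn were not called in either comparison of injured lungs. In 82-week against 7-week WT lungs 5 of 16 were lower and 0 higher (3.15% of all genes were lower), led by Rtkn2 (-0.98, SE 0.15, adjusted p = 6.41e-05) and Vegfa, the endothelial growth factor (-0.62, adjusted p = 0.00208). Pdpn, the member that was higher there, went against them.

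Genes of the transitional state through which type 2 cells pass on the way to type 1 cells were read beside the members. Of 7 such genes, 4 were higher in 82-week than in 7-week WT saline lungs, among them the tight junction gene Cldn4 (1.81, SE 0.21, adjusted p = 3.48e-06) and Lgals3, or galectin-3, which macrophages also make (1.40, SE 0.17, adjusted p = 7.67e-06). Of all genes 4.98% were called higher with age. The list mean of the 9 macrophage genes in that comparison was 9.96 in old and 7.79 in young lungs. After bleomycin in 82-week WT lungs 0 of the 7 were higher and 2 lower, Cldn4 (-1.50, adjusted p = 0.000302) and the cornified envelope gene Sprr1a (-2.00, adjusted p = 0.0259). Of all genes 0.5% were called higher and 0.505% lower there. The other bleomycin comparisons had 0 lower. In 16-week WT and 7-week Zmpste24 -/- lungs 2 of the 7 were higher each (medians 0.55 and 0.51), where 0.509% and 2.51% of all genes were. In 16-week Zmpste24 -/- lungs 1 was higher (median 0.35), where 7.32% of all genes were. In injured lungs of set 1, 4 of the 7 were lower in Zmpste24 -/- mice, among them the integrin gene Itgb6 (-1.17, SE 0.25, adjusted p = 0.00131) and the growth factor Hbegf (-0.86, adjusted p = 0.00343). Of 8 genes of epithelium in general, 1 was higher (the claudin Cldn3, 0.42, adjusted p = 0.0339) and 1 lower (E-cadherin, Cdh1, -0.61, adjusted p = 0.00576) in that comparison. The median of the 8 was -0.11. Of all genes 7.37% were called higher and 8.48% lower in these injured lungs of set 1.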

How the data were processed

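RNA of perfused mouse lungs was hybridized to arrays in 2 sets, with 3 biological samples a group per the methods. The authors deposited 1 table of log2 intensities per probe set for all arrays, and the background correction and normalization that made them are not stated in what was read. The labels name limma without a version. Of 41345 probe sets, 23521 have 1 gene symbol, 1820 several and 16004 none in the platform annotation, and the brightest probe set of each symbol (highest mean over 30 arrays) stood for its gene. Each member has 1 such probe set. Locations and promoter windows are those of RefSeq (GRCm38.p6), matched by symbol.

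Differences were tested with limma 3.58.1 in R 4.3.3, as contrasts between 10 group means over 30 arrays (22180 genes), and p-values were adjusted by Benjamini-Hochberg over all genes in each of 14 comparisons. A call is an adjusted p under 0.05. Intervals are 95% intervals of that fit. The test was also run on simulated data. For arrays, the number of arrays limits the precision. The members and the lists of other genes were chosen with earlier results of these data known. All 10 members are described, and of the other lists the genes with the lowest adjusted p among those called are named.

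Replicate numbers are shared between groups, but same-numbered arrays did not deviate together (median r of -0.01 over 135 pairs, against 0.01 over 270 pairs with different numbers), so no block was used in the fit reported. Alternatives changed the normalization, the filter on dim genes (mean log2 under 5.2), the choice of probe set, the array weights, the groups fitted, the set and the replicate block, or left out 1 array at a time. The transitional list was used without Areg, which no probe set names alone.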

Additional observations from a re-analysis of the deposited data

Results flagged for a closer look

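The bleomycin response of Hopx, the small homeodomain protein of type 1 cells, differed between genotypes by a test of the difference itself. It was 0.47 in 16-week Zmpste24 -/- lungs and -0.36 in 16-week WT lungs, a difference of 0.83 (SE 0.23, adjusted p = 0.0372, limma) in a comparison where the adjusted p ran from 0.00189 to 0.206 over 24 alternatives. Each response alone missed the threshold. The saline arrays of the 16-week Zmpste24 -/- group spread from 7.25 to 8.19 for this gene. The heart genes Myl7 and Tnnt2 differed in the same direction, by 1.98 and 1.71, and their part in the Hopx value was not tested. With 3 arrays a group, no search for outlying arrays by Dixon's criterion was made.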

How the results depend on the processing

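No difference changed sign among the alternatives of the 8 called differences, of which 112 kept the call and 33 lost it. Abca3 (-0.83 to -0.61) and Hopx (0.60 to 0.70) in injured lungs of set 1 were called under all 17 alternatives each. Counts of members called moved as follows, from the value reported. Bleomycin in 16-week Zmpste24 -/- mice went from 0 to 1 with quantile normalization, the filter on dim genes, array weights, and quantile normalization without saline replicate 3 (chosen after seeing the data). Bleomycin in 7-week Zmpste24 -/- mice went from 1 to 3 with quantile normalization, array weights, only the groups compared, set as a random block and all 6 young saline arrays, and to 0 without the 3 arrays near the WT level of Zmpste24. Age in WT mice went from 1 to 2 with quantile normalization, 3 with array weights and 0 with only the groups compared, and genotype with saline at 7 weeks from 0 to 2 with array weights. In injured lungs across sets, 2 became 1 with array medians centred, 4 with only the groups compared and 0 with set as a term, and within set 1, 2 became 4 with only the groups compared. The difference of responses at 16 weeks went from 1 to 0 with array weights and only the groups compared, that against 82-week WT mice from 0 to 1 with quantile normalization without that array, and the difference of age effects from 0 to 1 with the filter on dim genes, the random block and all 6 young arrays. Leaving out 1 array at a time gave 0 to 4 for bleomycin in 16-week Zmpste24 -/- mice, 0 to 1 for the 82-week WT and 7-week Zmpste24 -/- bleomycin comparisons, age in Zmpste24 -/- mice and the differences of responses of 16-week Zmpste24 -/- mice, and 0 to 2 for age in WT mice, the difference of age effects and injured lungs across sets. It gave 2 throughout for injured lungs of set 1 and 0 for the rest. With the replicate block every count stayed as reported (Sftpa1 in 82-week WT lungs 0.82), so the pairing changed no call. The cause of these changes was not tested. Over all genes the calls of bleomycin in 16-week Zmpste24 -/- lungs ran from 123 to 3746, against 2350 as reported.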
